A study of Caenorhabditis elegans with 16 samples.

Results

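The comparison described here set rnp-6(G281D) worms fed BW25113 against wildtype worms fed OP50, and asked what in the mutant transcriptome still departed from, or went past, the state of wildtype on the standard diet. RNA came from whole Caenorhabditis elegans on day 1 of adulthood, after 3 days of growth at 20 °C from synchronized egg laying. The study has 16 samples, 4 for each combination of genotype and diet, and the comparison uses 8 of them. Wildtype was the N2 strain. The mutant carried the rnp-6(dh1127) allele, which replaces a glycine with an aspartate (G281D), and no group carried another allele or agent. The bacteria were E. coli OP50, a B-type strain, or E. coli BW25113, a K12-type strain. All genes with a mean of at least 10 normalized counts over the 8 samples were compared, which left 15756 of 29351 genes listed. Since both the genotype and the diet differ between the groups, their parts in any difference cannot be told apart from this comparison alone. The other 2 groups, rnp-6(G281D) on OP50 and wildtype on BW25113, are therefore given beside it.

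RNP-6 is the worm ortholog of PUF60, a splicing factor that binds pyrimidine-rich RNA ahead of the 3′ splice site and helps the spliceosome to select it. Mutations in human PUF60 cause Verheij syndrome, a developmental disorder with growth delay. The study raised the mutant on K12-type bacteria, which supply more vitamin B12 than OP50 does, and asked whether this relieves its defects. Vitamin B12 serves the methionine cycle, which feeds the synthesis of phosphatidylcholine, and the breakdown of propionate.

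Totals of normalized counts lay between 36330390 and 38381707 per sample. The step between low values gave an approximate depth of 32563435 to 48176626 reads. Across the genes tested, samples of wildtype on OP50 correlated with each other with r from 0.991 to 0.994 and samples of rnp-6(G281D) on BW25113 from 0.989 to 0.992. Between these groups r was 0.976 to 0.986. Replicate 1 of both mutant groups stood apart in F31C3.14, a noncoding RNA that lies on the opposite strand within a 26S ribosomal RNA gene. It took 2.33% of the normalized counts of that sample on BW25113 and 2.03% on OP50, against at most 0.694% elsewhere. Replicate 1 was also the highest of its group in wildtype. It was at 0.498% on OP50 and 0.694% on BW25113, against at most 0.215% and 0.494% in the other samples of those groups. The level of rnp-6 itself (WBGene00004389) was 5555 ± 111 normalized counts (SD, n = 4) in wildtype on OP50 and 7336 ± 132 in the mutant on BW25113. The mutation is a single substitution, so this level does not check the labels.

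Of the 15756 genes, 1817 were called in rnp-6(G281D) on BW25113 against wildtype on OP50, which is 11.5% of the genes tested (limma, Benjamini-Hochberg adjusted p under 0.05 and an absolute log2 fold change, log2FC, over 0.5). Of these, 516 were higher (3.27% of the genes tested) and 1301 were lower (8.26%), and 855 had an absolute log2FC over 1. The median absolute log2FC of the called genes was 0.97. Fold changes are on the scale of log2(normalized count + 1), which understates the change of low genes. The split between higher and lower calls moved with the scaling: after quantile normalization 712 genes were called higher and 1038 lower. Calls were most frequent at 30 to 100 normalized counts, where 22.6% of 2839 genes were called, and rare above 1000, where 2.07% of 4821 genes below 10000 were. The remaining difference thus lay mostly in genes of low and middle level.

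The called genes fall into 3 classes by what the mutant did on OP50. On OP50, 1786 genes were called in rnp-6(G281D) against wildtype (11.3% of the genes tested), 899 higher (5.71%) and 887 lower (5.63%). On BW25113, 1098 of them (61.5%) were no longer called against wildtype on OP50. Another 664 (37.2%) were still different in the same direction, 298 higher and 366 lower. The remaining 24 (1.34%) overshot, which means that they were called on the other side of wildtype. Of these, 22 had been higher in the mutant on OP50 and fell below wildtype, and 2 had been lower and rose above it. Another class, of 1129 genes, was newly different: called on BW25113 but not on OP50, 216 higher and 913 lower. Both comparisons share the 4 wildtype OP50 samples, so the classes are counts and were not tested against each other.

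**Figure D1:**
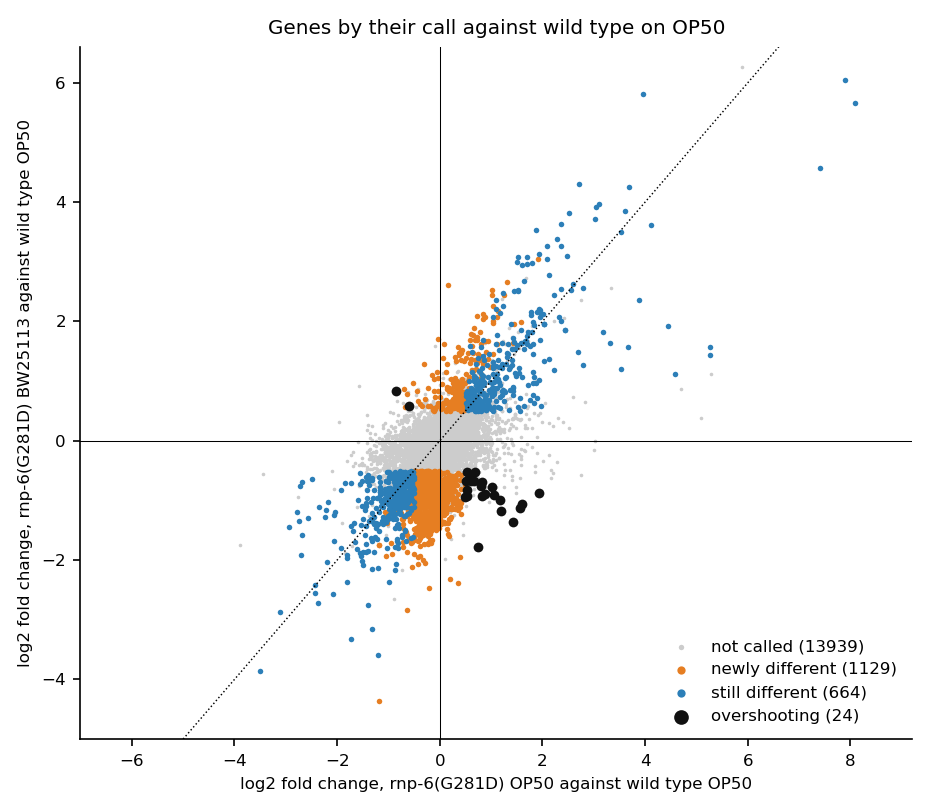
Each point is 1 of 15756 genes, placed by its log2 fold change in rnp-6(G281D) on OP50 (horizontal axis) and on BW25113 (vertical axis), both against wildtype on OP50; the dotted line marks equal values and both axes use the same wildtype samples. Blue points are the 664 genes still different, black points the 24 that overshot and orange points the 1129 newly different, of which 913 lie below 0 on the vertical axis.

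A gene that was not called on OP50 could still have differed there. In the same way, a gene no longer called on BW25113 need not have been back at the wildtype level. With the adjusted p alone in both comparisons, 1863 genes were still different in place of 664. Among the 913 newly lower genes the median log2FC was -1.003 on BW25113 and -0.17 on OP50, and in wildtype on BW25113 against wildtype on OP50 it was -0.61. Among the 216 newly higher genes these medians were 0.86, 0.40 and 0.39. The genes still higher had a median of 1.02 on BW25113 and 1.12 on OP50, and those still lower had medians of -0.92 and -0.87. The class required a call in the same direction on both diets against the same wildtype samples, so nothing is read from the likeness of these medians.

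The largest differences that stayed included nhx-6, a member of the sodium/proton exchanger family (WBGene00003734, chromosome II, 1670829 to 1674401 in WBcel235). Its normalized counts were 0, 8.62, 3.71 and 3.99 in the 4 samples of wildtype on OP50 and 392.4, 136, 244 and 324 in rnp-6(G281D) on BW25113, with no overlap (log2FC 6.04, SE 0.59, adjusted p = 3.8e-05). The mean in the mutant on OP50 was 939.8, so nhx-6 was nearer to wildtype on BW25113 but far from its level. The glutathione S-transferase gene gst-24 (WBGene00001772, chromosome II, 13610443 to 13611366), one of a family that conjugates electrophiles to glutathione, was listed at 66.6, 66.7, 68.3 and 89.6 in wildtype on OP50 and 698, 796, 1151 and 729 in the mutant on BW25113. That is 11.6-fold higher (log2FC 3.50, SE 0.16, adjusted p = 9.9e-08). Its means in the mutant were 861 ± 208 on OP50 and 844 ± 209 on BW25113 (SD, n = 4 each), which differ by less than the spread between samples, and in wildtype on BW25113 it was 94.8 ± 7.56. Between the diets in the mutant gst-24 was not called (log2FC -0.03, adjusted p = 0.94).

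Among the genes that stayed lower, clec-47 (WBGene00011668, chromosome V, 15175759 to 15176324), which encodes a C-type lectin, had 2401, 2492, 2286 and 2406 normalized counts in wildtype on OP50 and 297, 244, 289.6 and 244 in the mutant on BW25113 (log2FC -3.16, SE 0.07, adjusted p = 2.9e-10). Here both other groups lay between, at 964 ± 107 in the mutant on OP50 and 899 ± 39.4 in wildtype on BW25113, so the gene was lowest where mutation and diet met. Y48G1C.13 (WBGene00189949, chromosome I, 94829 to 95312) was listed at 243 ± 18.2 in wildtype on OP50 and 44.8 ± 6.06 in the mutant on BW25113, and it was as low in the other mutant group and as high in the other wildtype group: 44.2 ± 2.65 in the mutant on OP50 and 246 ± 6.30 in wildtype on BW25113. The ethanolamine-phosphate phospho-lyase gene eppl-1 (WBGene00020139, chromosome IV, 8449353 to 8451759), whose enzyme breaks down the head group precursor of phosphatidylethanolamine, had 1258, 1123, 1169 and 1062 in wildtype on OP50 and 272, 273, 285 and 314 in the mutant on BW25113 (log2FC -2.01, SE 0.07, adjusted p = 1.1e-08). The mean of eppl-1 was 407 ± 60.2 in the mutant on OP50 and 1082 ± 121 in wildtype on BW25113. The ABC transporter gene pgp-5 (WBGene00003999) fell from 584 ± 7.19 to 131 ± 16.3 (log2FC -2.16) and F49C12.7 (WBGene00009877) from 526 ± 99.9 to 125 ± 22.02 (log2FC -2.07). For each of these genes, from nhx-6 to F49C12.7, the groups did not overlap, which the naming rule required of them. Groups did not overlap in 26.9% of all genes tested.

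The genes that overshot included proteases and enzymes of fat use. The aspartyl protease gene asp-12 (WBGene00017678, chromosome V, 8269210 to 8272056) had 1145, 775, 980.0 and 1075 normalized counts in wildtype on OP50, 2636, 3028, 2407 and 2583 in the mutant on OP50 and 334, 496, 367 and 344 in the mutant on BW25113 (log2FC -1.37, SE 0.14, adjusted p = 5e-05 against wildtype on OP50). The mutant samples thus went from above every wildtype sample to below every one. In wildtype on BW25113 asp-12 was lower still, at 179 ± 33.8. The cathepsin B-like protease gene cpr-3 (WBGene00000783, chromosome V, 15296834 to 15298700) was listed at 457 ± 83.5, 1391 ± 219.9 and 216 ± 23.9 in the same 3 groups (SD, n = 4 each), and at 273 ± 104 in wildtype on BW25113. Each of the 2 protease genes was therefore also lower in wildtype on BW25113 than in wildtype on OP50 (log2FC -2.47 and -0.79, both called). The 3 other genes that the naming rule took were C17H12.8 (WBGene00015933, log2FC -0.93), B0205.13 (WBGene00044644, -0.87) and F14F9.4 (WBGene00017467, -0.83).

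Enzymes of fat use were also among the genes that fell below wildtype. The peroxisomal acyl-CoA oxidase gene acox-1.5 (WBGene00008167, chromosome III, 9586618 to 9592192), which the study lists among its lipid genes, had means of 1104 ± 151, 1918 ± 158 and 658 ± 112 in wildtype on OP50, the mutant on OP50 and the mutant on BW25113 (log2FC -0.75, adjusted p = 0.00092). The glyoxylate cycle gene icl-1 went from 6865 ± 1207 in wildtype on OP50 to 10760 ± 1339 in the mutant on OP50 and 4299 ± 852 on BW25113, and the lysosomal lipase gene lipl-4 from 52.9 ± 1.77 to 98.4 ± 12.5 and 28.7 ± 6.94; both were singled out after their values were seen. In wildtype on BW25113 icl-1 was at 4364 ± 784, close to the mutant on the same diet. Overshooting in the other direction was rarer. The glutathione S-transferase gene gst-10 (WBGene00001758, chromosome V, 2561690 to 2564645) had 1112, 942, 908 and 1144 in wildtype on OP50, 762, 695, 658 and 594 in the mutant on OP50 and 1600.5, 1713, 1412 and 1425 in the mutant on BW25113 (log2FC 0.58, SE 0.09, adjusted p = 0.00065), with 1744 ± 89.02 in wildtype on BW25113. The second gene of this kind was F54E4.2, at 59.96 ± 10.7, 34.4 ± 11.8 and 107 ± 20.4 in these 3 groups (log2FC 0.83). The count of 24 is small and depends on the thresholds: with an absolute log2FC over 1 only 4 genes overshot, and with the adjusted p alone 112 did.

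**Figure D2:**
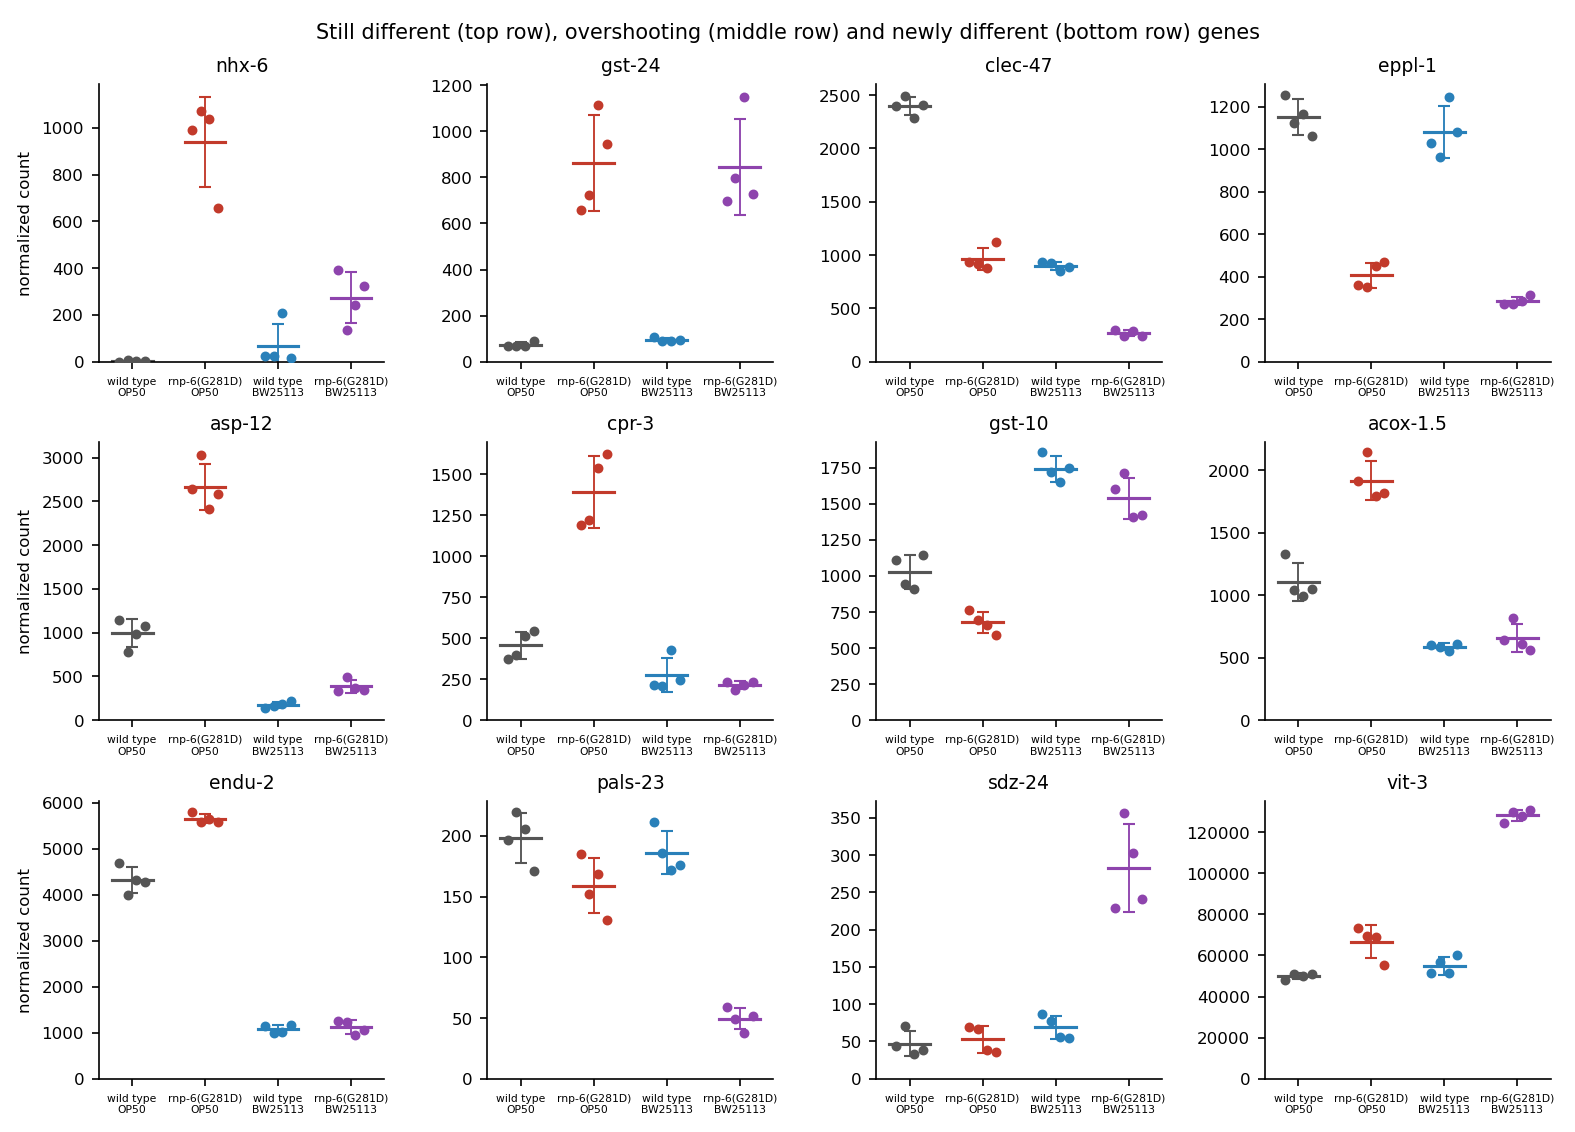
Normalized counts of 12 genes in each of the 16 samples; points are samples, horizontal lines group means and bars SD (n = 4). In the top row the mutant on BW25113 (purple) stays away from wildtype on OP50 (grey) on the side it took on OP50 (red), as for gst-24 with means of 72.8 and 844; in the middle row it crosses to the other side, as asp-12 does from 2664 to 385; in the bottom row the difference from wildtype on OP50 was called on BW25113 only.

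The newly different genes included every major sperm protein gene tested. The major sperm proteins are the cytoskeletal proteins that drive the crawling of worm sperm, and they also act as the signal that sperm send to oocytes. All 28 major sperm protein genes tested, of 31 in the table, were called lower in the mutant on BW25113 (8.26% of all genes were), with log2FC between -1.502 and -0.78 and a median of -1.21. The median over all genes tested was 0.00. None of the 28 was called in the mutant on OP50 (median log2FC -0.16), while in wildtype on BW25113 against wildtype on OP50 26 were called lower (median -0.76), where 2.61% of all genes were. Between the genotypes on BW25113, 4 were called lower (median -0.43), where 3.43% of all genes were. In all 28 the samples of the mutant on BW25113 lay below every sample of wildtype on OP50, while the groups did not overlap in 26.9% of all genes.

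Summed over these 28 genes, normalized counts were 19807, 19619.7, 15027 and 19746 in wildtype on OP50 and 11410.2, 8965, 5989.6 and 6689 in the mutant on BW25113. The mutant on OP50 had sums of 16323, 12705, 15114 and 23524, which overlap with wildtype, and wildtype on BW25113 had 13913, 9710.4, 9803 and 10439.8. Replicates 3 and 4 of the mutant on BW25113 were the lowest of the 16 samples. These genes are near-identical copies whose reads an abundance estimate can share out among them, so the 28 calls are not separate observations, and the sum is firmer than the value of any 1 member. The count of 28 lower genes was the same when any 1 sample of the 2 groups was left out, with medians between -1.37 and -1.05.

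The gene msp-56 (WBGene00003449, chromosome IV, 9841540 to 9841923) showed the pattern of the family. Its normalized counts were 775, 788, 589 and 749.6 in wildtype on OP50 and 374, 292, 184 and 206 in the mutant on BW25113 (log2FC -1.502, SE 0.19, adjusted p = 0.00029). The means were 599.7 ± 179 in the mutant on OP50 and 409 ± 47.4 in wildtype on BW25113. Some genes with sperm functions outside the family moved the same way. Both alg-3 (WBGene00011910) and alg-4 (WBGene00006449), Argonaute genes that act in the small RNA pathway of spermatogenesis, were lower. They were the only 2 of 29 Argonaute genes called. That share (6.9% lower) was below the 8.26% of all genes, so the count is not read as a result about the Argonaute list. The alg-3 mean went from 173 ± 13.4 to 96.9 ± 27.03 (log2FC -0.87, adjusted p = 0.004) and the alg-4 mean from 207 ± 21.7 to 98.7 ± 23.02 (log2FC -1.08, adjusted p = 0.00056). Wildtype on BW25113 had alg-4 at 117 ± 23.98, near the mutant on that diet, and in the mutant on OP50 it was 227 ± 72.5.

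A wider list of sperm genes, chosen after these values were seen, took the msd, ssp, ssq, spe and spch families and the sperm phosphatase genes gsp-3 and gsp-4. Of its 41 genes tested, 28 were lower (68.3%, against 8.26% of all genes) and 0 higher (median log2FC -1.06). With FPKM values 28 of its genes were tested, of which 15 were lower (median log2FC -0.73). The copies ssp-9 and ssp-11 were listed with the same means in every group, as were msd-1 and msd-3, and the members of a pair are not separate observations. On OP50 1 of the 41 was called lower in the mutant (5.63% of all genes were), and in wildtype on BW25113 14 were (2.61% of all genes). The sperm-specific gene ssq-4 had 761, 576, 519.8 and 779 normalized counts in wildtype on OP50 and 376, 202, 171 and 195 in the mutant on BW25113 (log2FC -1.53, SE 0.22, adjusted p = 0.0006), and gsp-3 went from 239.9 ± 31.3 to 117 ± 25.3. Not every gene of the list fell: spe-9, an egg recognition protein of sperm, was listed at 15.1 ± 5.59 and 14.9 ± 5.04, and spe-5, a subunit of a proton pump, at 463 ± 32.6 and 429.8 ± 15.1. Most members not called were spe genes, and spe-39, spe-47 and spe-48 had a log2FC above 0 (0.11, 0.46 and 0.15).

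Oocyte genes did not move with them. Of 21 oocyte and eggshell genes tested 0 were called by limma in either direction (median log2FC 0.04; 6 had an unadjusted p under 0.05), and the 6 oocyte markers summed to between 235905 and 239909 in wildtype on OP50 and between 236124 and 252405 in the mutant on BW25113. The 6 germline markers summed to between 58980 and 61420 and between 51694 and 56509, with 0 called. Their sum was lower in every sample of the mutant on BW25113 (4 of the 6 had an unadjusted p under 0.05). The markers did not fall together: 3 had a log2FC above 0 and 3 below (median 0.006). The largest falls were in glh-1 (means of 17756 and 13517) and pgl-1 (21708 and 19244). The 8 embryo markers summed to between 775 and 922 and between 721 and 1001, with 0 of 7 tested called (1 at an unadjusted p under 0.05). In whole animals, fewer sperm and less RNA in each sperm cannot be told apart, and neither was measured here.

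**Figure D3:**
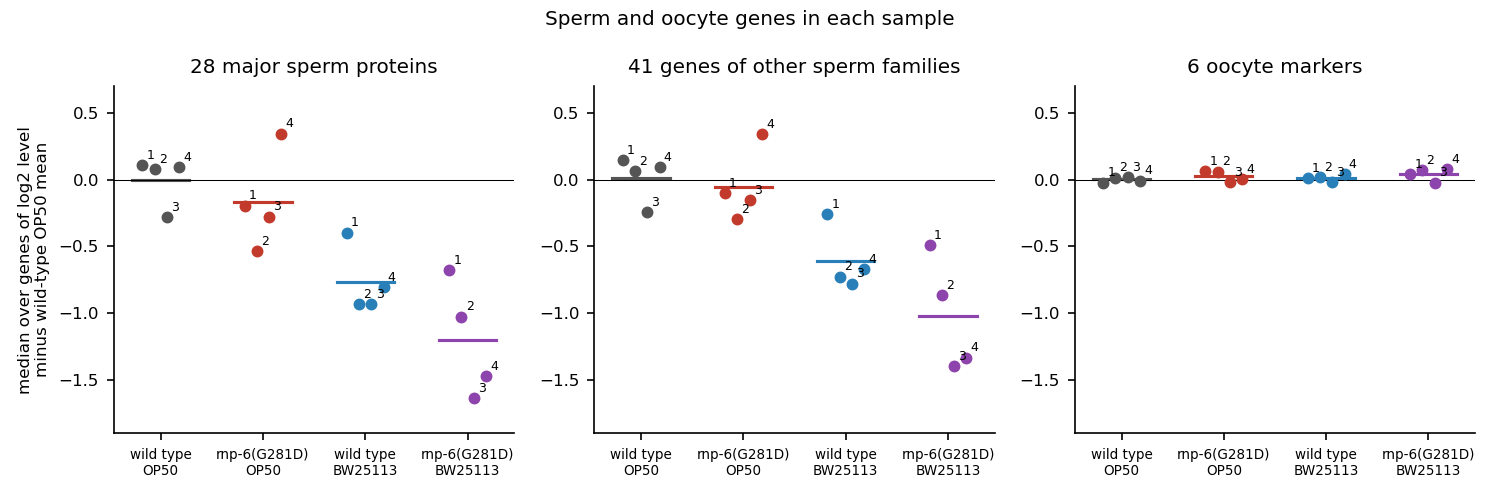
For each of the 16 samples (points numbered by replicate), the median over a list of genes of the log2 level minus its mean in wildtype on OP50; horizontal lines are group means. The 28 major sperm proteins lie between -1.64 and -0.68 in the mutant on BW25113 and between -0.93 and -0.40 in wildtype on BW25113, the 41 genes of other sperm families follow the same order of groups, and the 6 oocyte markers stay between -0.02 and 0.08 in every sample.

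The major sperm protein genes of the worm lie in clusters on chromosomes II and IV. Chromosome IV had the highest share of lower calls, 11.5% of 2702 genes, against 8.26% of all genes. Runs of neighbouring tested protein-coding genes that were all called lower included msp-56, nspd-2, K07F5.6, ssp-10 and ssq-1 (chromosome IV, 9841540 to 9853609), E03H12.5, E03H12.7, ssp-9, ssq-2 and ssp-11 (chromosome IV, 4977226 to 4999814) and K05F1.14, acdh-8, msp-63, msp-142 and K05F1.9 (chromosome II, 5791358 to 5801175). Within 1 Mb of the start of rnp-6 on chromosome I, 12 of 339 genes were higher and 25 lower, which is 10.9% called against 11.5% of all genes.

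Cuticle collagens were called higher at a larger share than all genes. Worms build a collagen cuticle in the hypodermis and replace it at each larval moult, and the embryo makes the first one before hatching. Of 124 cuticle collagen genes tested 20 were higher (16.1%, against 3.27% of all genes) and 4 lower, with a median log2FC of 0.34. Among the 58 with a mean of at least 100, 11 were higher and 1 lower and the median was 0.03. The adult collagen col-19, the most abundant hypodermis marker, had a log2FC of 0.03. Of the 24 collagens called 19 were still different and 5 newly different. In the mutant on OP50 25 collagens were higher and 4 lower, where 5.71% and 5.63% of all genes were. In wildtype on BW25113 4 were higher and 1 lower, where 0.717% and 2.61% of all genes were. The collagens called lower, col-110, col-135, col-43 and col-158, had also been lower in the mutant on OP50. In col-110 (WBGene00000684) the mean went from 84.4 ± 8.14 in wildtype to 18.4 ± 6.19 in the mutant on OP50 and 40.8 ± 3.37 on BW25113.

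The collagen gene dpy-2 (WBGene00001064, chromosome II, 6714292 to 6715971), one of those whose furrow collagens shape the body, had 19.7, 47.4, 35.1 and 19.01 normalized counts in wildtype on OP50 and 148, 133, 350.5 and 109.9 in the mutant on BW25113 (log2FC 2.52, SE 0.37, adjusted p = 0.00071). In the mutant on OP50 its values were 111, 141.9, 35.5 and 67.8 and in wildtype on BW25113 35.02, 89.4, 90.95 and 35.5. The collagen gene dpy-14 (WBGene00001075, chromosome I, 6843589 to 6845142) had 113, 122, 208 and 95.97 in wildtype on OP50 and 797, 555, 1877 and 542 in the mutant on BW25113 (log2FC 2.66, SE 0.36, adjusted p = 0.0004). It counts as newly different, but its values in the mutant on OP50, 495, 744, 107 and 267, lay above those of wildtype in 3 of 4 samples. The collagen sqt-3, singled out after its values were seen, went from 167, 189.6, 238 and 143 to 777, 510.3, 1685 and 619 (log2FC 2.14, SE 0.30, adjusted p = 0.00055).

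In each of these genes replicate 3 of the mutant on BW25113 was the highest of the 16 samples. The same held for R09E10.5 (WBGene00011175, 219, 218, 632 and 184 against 16.2, 32.3, 45.3 and 23.9 in wildtype on OP50; log2FC 3.26, SE 0.39, adjusted p = 0.00017) and for clec-78 (WBGene00018547, log2FC 2.68), which the naming rule took among the genes still higher, beside nhx-6, gst-24 and dpy-2. Without replicate 3 the difference was smaller and still called: the log2FC of R09E10.5 was then 2.86, that of clec-78 2.28, that of dpy-2 2.16 and that of dpy-14 2.26. The count of higher cuticle collagens was larger without it, 36 in place of 20, and was 31 with the replicate number as a block and between 15 and 25 without any other sample. The part of this sample, or of the stage of its animals, in the cuticle result was not tested.

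**Figure D4:**
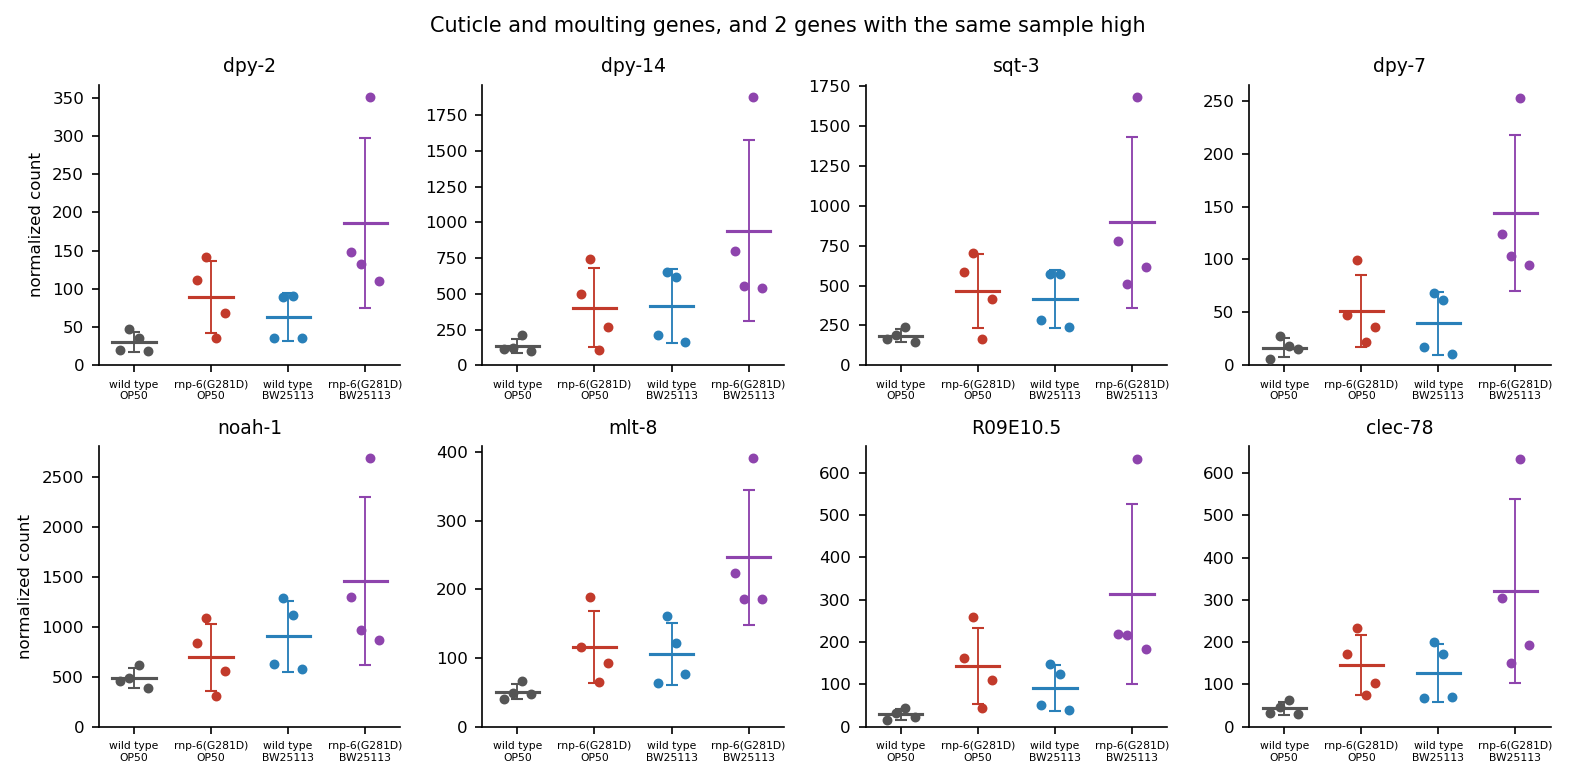
Normalized counts of 6 cuticle and moulting genes and of R09E10.5 and clec-78 in each of the 16 samples, drawn as points from replicate 1 to 4 within each group with the mean and SD (n = 4). The 4 samples of the mutant on BW25113 lie above all 4 of wildtype on OP50 in every panel and replicate 3 is highest, as for dpy-2 at 350.5.

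The hedgehog-related genes, many of which act in the cuticle and in moulting, are grouped here with the patched-related genes. Of the 52 tested 9 were higher and 5 lower (17.3% and 9.62%, against 3.27% and 8.26% of all genes; median log2FC 0.14). The lower share was thus close to that of all genes. With 1 sample left out, 7 to 12 were higher and 3 to 5 lower. Those higher included wrt-10 (WBGene00006956, 44.8 ± 13.3 to 198 ± 103, log2FC 2.03), wrt-2 (WBGene00006948, log2FC 2.45) and grl-7 (WBGene00001716, log2FC 3.04). The collagen dpy-17 (WBGene00001076, log2FC 1.74) and dao-2 (WBGene00000928, log2FC 2.25) were also among the genes newly higher. A list of moulting and extracellular matrix genes was chosen after the values were seen. It took the mlt, noah, cut, cutl and lpr genes with fbn-1, let-653, nas-36, nas-37, bli-5, acn-1 and phg-1. Of its 49 tested genes 19 were higher (38.8%, against 3.27% of all genes) and 1 lower, a count given as a description only. The zona pellucida domain gene noah-1, which builds the matrix beneath the new cuticle, had 454, 490.3, 619 and 391 in wildtype on OP50 and 1301, 971, 2696 and 869 in the mutant on BW25113 (log2FC 1.44, SE 0.29, adjusted p = 0.0044). The moulting gene mlt-8 went from 50.8 ± 10.9 to 246 ± 97.96 (log2FC 2.21). Of the 6 hypodermis markers, 1 was called higher, dpy-7, from 16.7 ± 8.80 to 144 ± 73.8, and the summed level of the list, led by the adult collagen col-19, was between 77648 and 85243 in wildtype on OP50 and between 79700 and 89641 in the mutant on BW25113.

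Most F-box genes that differed on OP50 were no longer called, which was also true of 61.5% of all genes called there. F-box proteins choose the substrates of ubiquitin ligases, and they form one of the large gene families of the worm. On OP50 33 of 235 tested F-box genes were higher and 72 lower in the mutant, where 5.71% and 5.63% of all genes were. On BW25113 11 were higher and 8 lower than wildtype on OP50, or 4.68% and 3.40%, against 3.27% and 8.26% of all genes tested. The counts rested on single samples: F-box genes called lower ranged from 2 (without replicate 1 of wildtype on OP50) to 18 (without replicate 3 of the mutant on BW25113), and those called higher fell to 5 without replicate 4 of wildtype on OP50. Of the 19 called, 14 had been called in the same direction on OP50. The largest change, in fbxa-151 (log2FC -2.47), lost its call in 12 of the alternative settings. The F-box gene with the largest rise was fbxa-192 (WBGene00010212), at 71.8 ± 13.5 in wildtype on OP50, 180.1 ± 19.3 in the mutant on OP50 and 222 ± 17.2 in the mutant on BW25113 (log2FC 1.63). The MATH and BTB genes, other substrate adaptors, had 4 higher and 4 lower of 69, of which math-3 (WBGene00015608) went from 488 ± 39.1 to 134 ± 13.4, after 172 ± 18.6 on OP50.

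**Figure D5:**
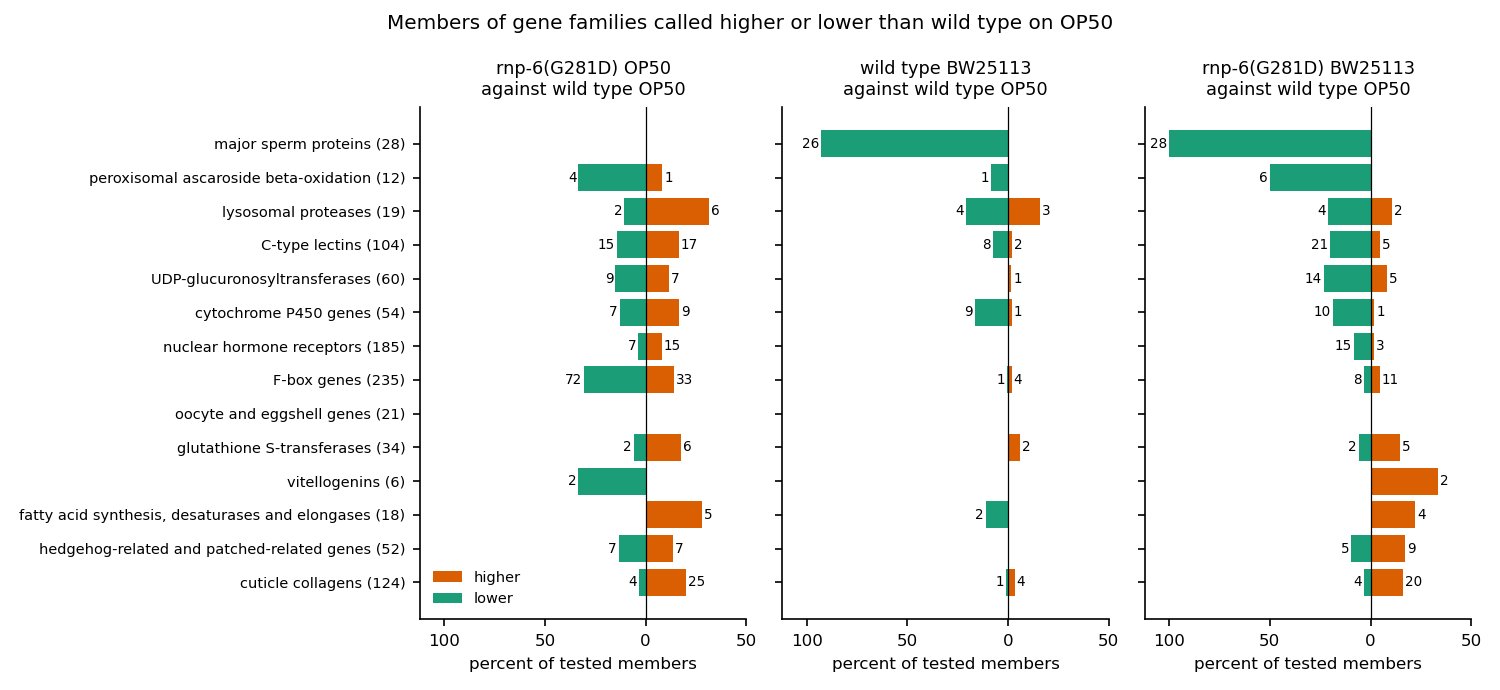
Members of 14 gene lists called higher (orange, to the right) or lower (green, to the left) than wildtype on OP50, as a percent of the members tested (in parentheses) with the number of genes beside each bar, in 3 comparisons that share the wildtype OP50 samples. Major sperm proteins have 0, 26 and 28 lower genes in the 3 panels, F-box genes have 72, 1 and 8, and cuticle collagens have 25, 4 and 20 higher genes.

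C-type lectins and antimicrobial genes were called lower at a higher share than all genes. Of 104 C-type lectins tested, genes whose products bind sugars and many of which respond to infection, 5 were higher and 21 lower (20.2% lower, against 8.26% of all genes). On OP50 17 had been higher and 15 lower, where 5.71% and 5.63% of all genes were. Besides clec-47, clec-3 (WBGene00016577) fell from 45.1 ± 5.97 to 2.81 ± 0.449. Of 52 lysozyme, saposin and antimicrobial peptide genes 2 were higher and 9 lower (17.3% lower), with lys-10 (WBGene00003099) at 29.1 ± 7.11 and 3.88 ± 2.40. Among 5 infection response genes 3 were lower, among them irg-4 (WBGene00008584, 214 ± 52.4 to 67.7 ± 5.83, log2FC -1.62) and irg-5 (WBGene00009429, log2FC -1.80), each of which had been lower on OP50 as well. The dod genes, named for their place downstream of the transcription factor DAF-16, had 3 of 8 lower, with dod-24 (WBGene00007875) at 929 ± 109.8 in wildtype on OP50, 649.9 ± 75.2 in the mutant on OP50, 502 ± 37.5 in wildtype on BW25113 and 303 ± 21.6 in the mutant on BW25113.

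Enzymes that modify foreign compounds were counted by family. Of 60 UDP-glucuronosyltransferase genes 5 were higher and 14 lower (8.33% and 23.3%, against 3.27% and 8.26% of all genes), 12 of the 19 newly different. The gene ugt-2 (WBGene00007073) was listed at 439 ± 32.6 in wildtype on OP50, 546 ± 20.8 in the mutant on OP50, 432 ± 17.9 in wildtype on BW25113 and 226 ± 12.4 in the mutant on BW25113, so that it was low in 1 of the 4 groups. Of 54 cytochrome P450 genes 1 was higher and 10 lower (18.5% lower). The largest falls were in cyp-35A3 (WBGene00019565, 137 ± 16.3 to 30.3 ± 8.47) and cyp-35A2 (WBGene00015400, 1484 ± 79.9 to 391 ± 43.3), members of a gene group that many foreign compounds induce. The single higher one, cyp-25A2 (WBGene00007964), went from 869.7 ± 92.5 to 2003 ± 171 and had been at 2199.5 ± 184 in the mutant on OP50. Of 34 glutathione S-transferase genes 5 were higher and 2 lower (14.7% and 5.88%). Of 185 nuclear hormone receptor genes 3 were higher and 15 lower (1.62% and 8.11%, the latter close to all genes), a split that became 5 and 5 after quantile normalization.

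The pals genes, part of the response of the worm gut to intracellular pathogens, were called in both directions. Of 18 tested 3 were higher and 2 lower (16.7% and 11.1%, against 3.27% and 8.26% of all genes). The lower share was thus close to that of all genes. On OP50 8 had been higher and 1 lower, where 5.71% and 5.63% of all genes were. The gene pals-6 (WBGene00007660) had a mean of 6.76 ± 5.14 in wildtype on OP50, 98.1 ± 13.8 in the mutant on OP50 and 33.9 ± 7.27 in the mutant on BW25113. The cullin gene cul-6 (WBGene00000841), which acts in the same response, was still higher at 378 ± 62.4 against 178 ± 8.18 (log2FC 1.07, SE 0.11, adjusted p = 5.2e-05), after 548 ± 70.7 on OP50. In contrast pals-23 (WBGene00016218, chromosome III, 124778 to 127971) had 197, 219.7, 206 and 171 normalized counts in wildtype on OP50 and 59.3, 49.3, 37.6 and 52.01 in the mutant on BW25113 (log2FC -1.99, SE 0.15, adjusted p = 6.7e-06). It was at 159 ± 23.001 in the mutant on OP50 and 186 ± 17.9 in wildtype on BW25113, neither of them called against wildtype on OP50. The neighbouring pals-24 (WBGene00016219) went from 189 ± 21.5 to 56.9 ± 7.53 (log2FC -1.72) in the same way. The reporter gene of the study, Y41C4A.32 (WBGene00270321), was at 80.3 ± 10.97, 3254 ± 1169 and 229 ± 84.7 in wildtype on OP50, the mutant on OP50 and the mutant on BW25113, so most of its rise was gone and a log2FC of 1.44 was left (adjusted p = 0.0011).

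Other called genes included endu-2, hrg-7 and hrg-3, each also called in wildtype on BW25113. The endoribonuclease gene endu-2 (WBGene00019779, chromosome X, 8242301 to 8247869) had 4678, 3994, 4329 and 4283 normalized counts in wildtype on OP50 and 1264, 1222, 942 and 1063 in the mutant on BW25113 (log2FC -1.95, SE 0.08, adjusted p = 7.1e-08). It was at 5649 ± 101 in the mutant on OP50 and 1085 ± 90.6 in wildtype on BW25113, so it was low in both groups on BW25113. The haem genes hrg-7 and hrg-3, which carry the haem status of the gut to other tissues and haem to the embryo, were singled out after their values were seen. For hrg-7 the samples read 6889, 6199, 7178 and 6084 in wildtype on OP50 and 22364, 21164, 16149 and 21887 in the mutant on BW25113 (log2FC 1.62, SE 0.09, adjusted p = 7.8e-07), with 28405 ± 4779 in wildtype on BW25113. For hrg-3 the means were 31.1 ± 5.996, 176 ± 25.6 and 283 ± 108 in the same 3 groups. It was also called higher in the mutant on OP50, at 75.7 ± 22.2 (log2FC 1.23), so it counts as still different. The gene sdz-24 (WBGene00019495, chromosome II, 658669 to 659846) was different in kind: 44.02, 70.8, 33.1 and 38.99 in wildtype on OP50 and 229, 356, 302 and 241 in the mutant on BW25113 (log2FC 2.60, SE 0.22, adjusted p = 1.5e-05), but 52.8 ± 18.2 in the mutant on OP50 and 68.7 ± 16.02 in wildtype on BW25113. The other genes that the naming rule took among the newly lower were B0379.7 (WBGene00007159, log2FC -1.64) and C14C10.1 (WBGene00007584, log2FC -1.596).

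Vitellogenins, the yolk proteins that the gut makes for the oocytes, were called higher in 2 of 6 genes (33.3%, against 3.27% of all genes). For vit-3 (WBGene00006927, chromosome X, 3567355 to 3572549) the samples of wildtype on OP50 read 48044, 51164, 50045 and 50775 and those of the mutant on BW25113 124393, 129971, 127879 and 130681 (log2FC 1.36, SE 0.03, adjusted p = 2.9e-10). The means were 66784 ± 8010.1 in the mutant on OP50 and 54944 ± 4245 in wildtype on BW25113. For vit-4 (WBGene00006928) the means were 85516 ± 2066 in wildtype on OP50 and 134972 ± 2711 in the mutant on BW25113 (log2FC 0.66). The genes vit-3, vit-4 and vit-5 are near-identical, so reads may be shared out among them, and vit-5 was listed at 133226 ± 2863 and 135507 ± 1194. Summed over all 6 genes, normalized counts were 531049, 545430, 553630 and 557529 in wildtype on OP50 and 688731, 677091, 704817 and 714620 in the mutant on BW25113, so the groups did not overlap for the sum either. In contrast vit-1 (WBGene00006925), lower in the mutant on OP50 at 12957 ± 1106, was at 28007 ± 1888 on BW25113 against 31751 ± 1561 in wildtype on OP50 and no longer passed the threshold (log2FC -0.18, adjusted p = 0.019).

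Lipid genes stayed changed in part. Of the 18 genes of fatty acid synthesis, desaturation and elongation 4 were higher (22.2%, against 3.27% of all genes) and 0 lower. All 4 were still different. The stearoyl-CoA desaturase genes fat-5, fat-6 and fat-7 were 3 of them. For fat-6 (WBGene00001398) the samples of wildtype on OP50 read 9879, 11795, 10271 and 9721 and those of the mutant on BW25113 17036, 16635, 18289 and 17634 (log2FC 0.74, SE 0.06, adjusted p = 5.4e-06), after a mean of 21169 ± 1491 on OP50. For fat-5 (WBGene00001397) the means were 1228 ± 174, 2464 ± 164 and, in the mutant on OP50, 4728 ± 787, and for fat-7 (WBGene00001399) 3951 ± 512, 6315 ± 629 and 13374 ± 2129. All 3 thus lay between wildtype and the mutant on OP50. In fat-7 wildtype fell on BW25113 to 1848 ± 233, and the log2FC of the mutant on BW25113 was 1.78 against wildtype on that diet and 0.68 against wildtype on OP50. The elongase gene elo-5 (WBGene00001243), which makes branched-chain fatty acids, went further up, from 7025 ± 571 in wildtype on OP50 and 10041 ± 730.2 in the mutant on OP50 to 11777 ± 54.2.

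Peroxisomal beta-oxidation, which shortens the side chains of the ascaroside pheromones, went the other way. Of 12 genes tested 6 were lower (50%, against 8.26% of all genes) and 0 higher (median log2FC -0.51). In the mutant on OP50 4 had been lower and 1 higher (median log2FC -0.34), where 5.63% of all genes were lower and 5.71% higher. The acyl-CoA oxidase gene acox-3 (WBGene00019060) had 1094, 883, 1065 and 1068 in wildtype on OP50 and 399.6, 404, 408 and 443 in the mutant on BW25113 (log2FC -1.31, SE 0.07, adjusted p = 5.4e-07), and had been at 510.2 ± 35.8 in the mutant on OP50. The acyl-CoA synthetase gene acs-7 (WBGene00007228) went from 693 ± 34.6 to 361 ± 42.2. The genes maoc-1, dhs-28 and daf-22, which carry out the later steps of the cycle, were newly lower, with log2FC -0.85, -0.66 and -0.59. They were named after their values were seen. The gene acs-7 is counted again among the acyl-CoA synthetases, and dhs-28 among the short-chain dehydrogenases. Among the 21 acyl-CoA synthetase genes 6 were lower (28.6%, against 8.26% of all genes) and 0 higher. Among 29 short-chain dehydrogenase genes 5 were lower (17.2%) and 0 higher. The largest of these falls, in dhs-26 (WBGene00000989), took the mean from 121 ± 35.3 to 7.12 ± 1.002, about where the mutant had been on OP50 (9.50 ± 2.16).

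The study names 25 lipid genes that it drew from these samples, so their count is not independent evidence. All 25 were called on OP50, 13 higher and 12 lower. On BW25113 11 were still different from wildtype on OP50, 1 overshot (acox-1.5) and 13 were not called. Among those not called, fat-2 (WBGene00001394) was at 19804 ± 1082 in wildtype on OP50, 29077 ± 805 in the mutant on OP50 and 20790.5 ± 480.4 in the mutant on BW25113, and acox-1.2 (WBGene00008565) at 988 ± 146, 369.9 ± 51.4 and 870.3 ± 116. The choline kinase gene ckb-2 (WBGene00000512) missed the fold threshold from the other side, at 1266 ± 242, 2014 ± 294 and 929 ± 111 (log2FC -0.43, adjusted p = 0.023).

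Genes of the methionine cycle and of vitamin B12 use were called lower at a share near that of all genes. Of 18 tested 0 were higher and 2 lower (11.1% lower, against 8.26% of all genes), while 14 had a log2FC below 0 and 13 had an unadjusted p under 0.05. Those called were sams-5 (WBGene00006416, log2FC -0.70) and cbs-2 (WBGene00018783, log2FC -0.89), and sams-5 was as low in wildtype on BW25113 (215 ± 26.7, against 352 ± 38.6 on OP50). The methionine synthase gene metr-1 (WBGene00010988) was listed at 17769 ± 1992 in wildtype on OP50 and 13713 ± 821 in the mutant on BW25113 (log2FC -0.37, adjusted p = 0.0032), a small difference under the fold threshold. The same was true of cbl-1 (WBGene00007533), at 1621 ± 50.5 and 1157 ± 131 (log2FC -0.49), which had been called lower on OP50 at 733 ± 125. The S-adenosylmethionine synthetase gene sams-1 (WBGene00008205) was at 8756 ± 985 and 8682 ± 1283. By limma, 0 of the 5 genes of the B12-dependent propionate route and 0 of the 7 of the propionate shunt and its regulators were called, while 2 and 4 of them had an unadjusted p under 0.05. The shunt gene acdh-1 (WBGene00016943), a widely used reporter of low vitamin B12, had 47647, 48622, 48578 and 47755 in wildtype on OP50 and 58779.7, 61223, 57264 and 56578 in the mutant on BW25113 (log2FC 0.28, adjusted p = 5.4e-05). Of 17 genes of phosphatidylcholine and phosphatidylethanolamine synthesis 1 was lower, eppl-1.

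Of 37 genes on the splicing factor list 1 was higher and 1 lower (2.7% each, against 3.27% and 8.26% of all genes), and 20 had an unadjusted p under 0.05. The nuclear hormone receptor gene nhr-114 (WBGene00003704), which the study places downstream of rnp-6, was at 3217 ± 636 in wildtype on OP50, 2245 ± 468 in the mutant on OP50, 2698 ± 616 in wildtype on BW25113 and 1829 ± 364 in the mutant on BW25113 (log2FC -0.82 against wildtype on OP50, adjusted p = 0.0033). Between the genotypes on BW25113 it was not called (log2FC -0.55, adjusted p = 0.055). The splicing factor gene called lower, rbm-5 (WBGene00020346), had 6849, 6679, 6613 and 6837 in wildtype on OP50 and 3684, 3719.9, 3665 and 3813 in the mutant on BW25113 (log2FC -0.86, SE 0.03, adjusted p = 7e-09), with 3600.4 ± 135 in the mutant on OP50 and 6459 ± 132 in wildtype on BW25113. The member called higher, tos-1 (WBGene00019466), is on the list as a gene whose splicing the study assayed, not as a splicing factor. It went from 5608 ± 268 to 8882 ± 406 (log2FC 0.66) and was not called in the FPKM table, where its log2FC was 0.09.

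Several lists had no gene past both thresholds. None of the 33 proteasome subunits, 67 histone genes, 19 genes of the mitochondrial and endoplasmic reticulum unfolded protein response, 9 genes of nonsense-mediated decay, 9 lipid-binding protein genes and 16 genes of the mTOR pathway was called by limma, with median log2FC between 0.02 and 0.13. At an unadjusted p under 0.05 the counts were 6, 42, 5, 2, 7 and 7 in that order. Among all genes tested 3.27% were higher and 8.26% lower. Of 78 cytosolic ribosomal protein genes 1 was lower, of 21 heat shock genes 1 was higher and 1 lower, and of 124 neuropeptide and insulin-like peptide genes 4 were higher and 1 lower. That last split moved with single samples, with 1 to 4 higher and 0 to 5 lower when 1 sample was left out: 1 higher and 0 lower without replicate 4 of wildtype on OP50, and 2 higher and 5 lower without replicate 3 of the mutant on BW25113. The markers of intestine, body wall muscle, neurons and pharynx had 0 called of 5, 6, 7 and 5 tested (2, 0, 2 and 0 at an unadjusted p under 0.05). Of the sperm markers 5 of 6 tested were lower, with a summed level between 1992 and 2627 in wildtype on OP50 and between 909 and 1551 in the mutant on BW25113.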

How the data were processed

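Whole-worm RNA was sequenced from 16 samples with a strand-specific, ribosomal RNA-depleted, paired-end protocol. The submitters' processing notes name kallisto 0.46.1, DESeq2 1.24, Cufflinks 2.2.1 and the builds ce11 and WBcel235. The authors deposited normalized counts per gene, scaled by the median of ratios and read here as a signal, and a table of FPKM values from the same samples. The deposited normalized signal was not turned back into whole reads, since low values came out whole (within 0.05) for only 56.6% to 83.8%, so no count model was used.

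Values were taken as log2(normalized count + 1) and compared with limma 3.58.1 in R 4.3.3 (eBayes with a variance trend), with Benjamini-Hochberg adjustment over all 15756 genes. Calls needed an absolute log2FC above 0.5 together with an adjusted p below 0.05. The exact permutation test planned for single genes is not reported, since the naming rule already required groups that do not overlap. On simulated data, 125, 161 and 193 of 200 changed genes were recovered at log2 changes of 0.75, 1 and 2, with 2, 0 and 7 false calls. The simulation gave each gene independent normal noise with its own spread and changed only 200 of the 15756 genes. It lacks deviations shared between genes or samples, so these counts check the fit and are not error rates for the calls made here. Figures were drawn with matplotlib 3.10.9.

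The members and lists were chosen with earlier results of these data known. Genes were named by rule: in each class and direction, up to 5 protein-coding genes with a mean of at least 100, non-overlapping groups and the largest log2FC; genes the study names; and up to 2 called genes per list and direction. Other genes were chosen after their values were seen. That is said beside many of them, and it also holds for vit-1, vit-5, dpy-7, glh-1 and pgl-1, among others. Same-numbered samples of the 2 groups deviated together (r = 0.41, 0.146, 0.44 and 0.168 over 10203 genes), so the numbers were taken to pair them, from the data and not from the labels. Between unlike numbers r ran from -0.373 to 0.202, so 2 of the same-number values were below the highest of these. The main fit, which gave the calls and p-values above, did not use the pairs. The fit with the replicate number as a block, given as an alternative, did. The labels do not say that replicates are separate cultures, so p-values measure the spread between these samples.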

Additional observations from a re-analysis of the deposited data

Results flagged for a closer look

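In 16 of 338 groups of 4 samples the highest or lowest sample stood apart by Dixon's ratio, its gap to the nearest sample over the group's range. Chance gives about 16.9 such groups. In wildtype on OP50, gst-24 (ratio 0.916) was 89.6 in replicate 4 against 66.6 to 68.3 in the others, and acs-15 (0.864) was 100.2 in replicate 1 against 56.1 to 60.8. The lowest samples of that group were in C14C10.1 (0.947, replicate 3), acox-1.3 (0.89, replicate 3), acox-3 (0.872, replicate 2), Y41C4A.11 (0.92, replicate 4), ech-6 (0.915, replicate 4), ugt-57 (0.947, replicate 1) and grd-4 (0.893, replicate 1).

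In rnp-6(G281D) on BW25113, R09E10.5 (ratio 0.862) was 632 in replicate 3 against 184 to 219 in the others, and cyp-35A3 (0.864) was 42.9 in replicate 4 against 24.9 to 26.8. The lowest samples were in F14F9.4 (0.95, replicate 4), dao-3 (0.844, replicate 4), mel-32 (0.879, replicate 3), cpr-8 (0.909, replicate 3) and hsp-12.3 (0.879, replicate 1).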

How the results depend on the processing

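Thresholds moved the counts most. With a mean of at least 100, 754 genes were called (211 higher, 543 lower; 323 still different, 413 newly different). With the adjusted p alone there were 3884 (1664 higher, 2220 lower; 1863 still different, 112 overshooting, 1909 newly different), and with an absolute log2FC over 1 there were 855 (235 higher, 620 lower; 217, 4 and 634). Leaving out 1 replicate at a time gave 1483 to 1838 called genes, 415 to 499 higher and 1068 to 1339 lower, with 568 to 682 still different, 18 to 29 overshooting and 893 to 1193 newly different. With the replicate block, 566 genes were higher and 1395 lower. It changed the count of higher cuticle collagens (31 in place of 20) and ended the calls of fbxc-20 (adjusted p = 0.053) and nlp-59 (adjusted p = 0.057), and no other call of a named gene. Without replicate 1 of both mutant groups, an alternative chosen after seeing the data, 499 genes were higher and 1339 lower. Of 112 named genes called, 15 lost the call in at least 1 alternative and 0 reversed. In the FPKM table, 400 of 14235 genes were higher and 1138 lower; the major sperm proteins were not tested there.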
